A study of Mus musculus with 12 samples.

Results

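The 9 genes described here encode receptors of the TNF receptor superfamily that T cells and regulatory T cells (Treg) carry: Cd27, Tnfrsf4 (OX40), Tnfrsf18 (GITR), Tnfrsf9 (4-1BB), Tnfrsf8 (CD30), Tnfrsf1b (TNFR2), Tnfrsf14 (HVEM), Tnfrsf1a (TNFR1) and Tnfrsf25 (DR3). They were taken by symbol from a table of 55011 genes, and all 9 were among the 13295 genes with enough counts to be tested. Cd27 and Tnfrsf1a were lower in ∆Foxp3 than in WT Treg of both the lungs and the spleen. By group mean, Tnfrsf4 and Tnfrsf18 were the most abundant of the 9 per exon length in all 4 groups.

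RNA came from Treg of 21-day-old male mice on the C57BL/6 strain, with 3 libraries in each of 4 groups. The lung ∆Foxp3 cells carried an allele that the labels write as [delta]Foxp3.ires.GFP, and the lung WT cells Foxp3.ires.GFP, an intact gene with a green reporter. The sample labels give the spleen ∆Foxp3 cells another allele, [delta]Foxp3.EGFP.iCre, together with R26.YFP, and the spleen WT cells Foxp3.ires.GFP. The protocol text, however, writes of the ires.GFP allele alone, in disagreement over the spleen, and neither source states which part of Foxp3 is missing. All groups passed the same gate (DAPI negative and positive for TCRβ, CD4, GFP and CD25), with 1000 cells per library. Here ∆Foxp3 Treg means cells that passed this gate in mice with the deleted allele. Lungs were perfused and digested with enzymes before sorting, and spleens were only dissociated mechanically, so tissue and preparation cannot be told apart. Whether each library is a separate mouse is not stated, so the p-values reflect library-to-library spread that could be technical.

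Receptors of this superfamily are surface proteins that bind trimeric ligands of the TNF family. Most of the 9 lack a death domain and recruit TRAF adaptors, which lead to NF-kappaB, a family of transcription factors that acts in survival and activation; Tnfrsf1a and Tnfrsf25 carry a death domain, bind TRADD and can also lead to caspase activation. Treg are known for high surface levels of GITR, OX40 and TNFR2 compared with conventional resting CD4 T cells.

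Library totals ran from 3958892 to 9025150 counts. Foxp3 was at 469, 385 and 189 CPM (counts scaled by library total and TMM factor, as for every CPM here) in lung ∆Foxp3 and at 1420, 1360 and 1330 in lung WT, and at 159, 114 and 227 in spleen ∆Foxp3 and 1030, 991 and 1100 in spleen WT. Lung ∆Foxp3 library 3 and lung WT library 1 had the most detected genes among their replicates (23649 and 22981), and spleen WT library 1 had the largest total. The 5 Treg markers summed to 1500 to 2510 CPM in lung ∆Foxp3, 3410 to 3980 in lung WT, 1260 to 1540 in spleen ∆Foxp3 and 3230 to 3370 in spleen WT. This sum includes Foxp3 itself. Another of them, Ikzf4, averaged 201 CPM in lung ∆Foxp3, 199 in lung WT, 134 in spleen ∆Foxp3 and 229 in spleen WT. Il2ra, also among the 5, had a ∆Foxp3 over WT log2 fold change of -0.49 ± 0.23 in lung (SE; adjusted p = 0.156, edgeR). In spleen its value was -1.02 ± 0.23 (adjusted p = 0.00531, edgeR). The 7 T cell markers summed to 4160 to 4720 CPM in lung ∆Foxp3, 4850 to 5110 in lung WT, 4430 to 4850 in spleen ∆Foxp3 and 5080 to 6440 in spleen WT. Among B and plasma cell markers, Ighm averaged 163 CPM in lung ∆Foxp3, 1920 in lung WT, 105 in spleen ∆Foxp3 and 1190 in spleen WT, while Ms4a1, which encodes the B cell antigen CD20, had 0 counts in spleen WT and at most 2.11 CPM in any library. The 9 myeloid markers summed to 160 to 237 CPM in lung ∆Foxp3, 259 to 513 in lung WT, 248 to 430 in spleen ∆Foxp3 and 355 to 490 in spleen WT, most of it Ctss. The 4 endothelial markers summed to 112 to 119 CPM in lung ∆Foxp3, 282 to 329 in lung WT, 89.4 to 144 in spleen ∆Foxp3 and 269 to 328 in spleen WT, nearly all of it Pecam1, while Cldn5 had 0 counts in both spleen groups and Cdh5 and Kdr were at most 1.58 CPM in any library. The 4 lung epithelial markers summed to 10.3 to 20.5 CPM in lung ∆Foxp3, 35.2 to 203 in lung WT, 6.56 to 9.76 in spleen ∆Foxp3 and 21.3 to 37.3 in spleen WT. The 4 globin genes summed to 0.793 to 364 CPM in lung ∆Foxp3, 1850 to 4630 in lung WT, 8.63 to 353 in spleen ∆Foxp3 and 4.63 to 16.1 in spleen WT. Several of these values, the Ighm, endothelial and epithelial ones among them, were lower in ∆Foxp3 in both tissues, as were Cd27 and Tnfrsf1a. The part of these transcripts in the receptor values was not tested. In sorted bulk samples such as these, fewer cells of a type and less RNA per cell cannot be told apart.

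Per exon length, Tnfrsf4 had the highest mean of the 9 genes, at 466 ± 34.6 CPM per kb in lung ∆Foxp3, 318 ± 100 in lung WT, 409 ± 181 in spleen ∆Foxp3 and 483 ± 107 in spleen WT (SD, n = 3 each). Tnfrsf18 followed at 303 ± 31.6, 270 ± 45.2, 289 ± 33.2 and 396 ± 68.7 CPM per kb in the same order of groups. On this scale the Tnfrsf4 and Tnfrsf18 libraries overlapped in every group but lung ∆Foxp3, where every Tnfrsf4 value exceeded every Tnfrsf18 value. Cd27 came next by mean in all 4 groups, at 80.9 ± 23.8 CPM per kb in lung ∆Foxp3 and 239 ± 23.9 in lung WT. In spleen it was at 91.3 ± 19.2 in ∆Foxp3 and 284 ± 7.36 in WT. Its lung WT libraries (248, 257 and 212 CPM per kb) overlapped those of Tnfrsf18 (322, 247 and 240) and Tnfrsf4 (421, 312 and 221). In both ∆Foxp3 groups the Cd27 libraries overlapped those of Tnfrsf1b and Tnfrsf25. At the other end, Tnfrsf8 and Tnfrsf1a took the last places, with Tnfrsf1a last in both ∆Foxp3 groups (3.19 ± 0.974 in lung and 6.42 ± 2.82 CPM per kb in spleen) and Tnfrsf8 last in both WT groups (2.96 ± 0.918 in lung and 4.95 ± 3.6 in spleen).

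**Figure D1:**
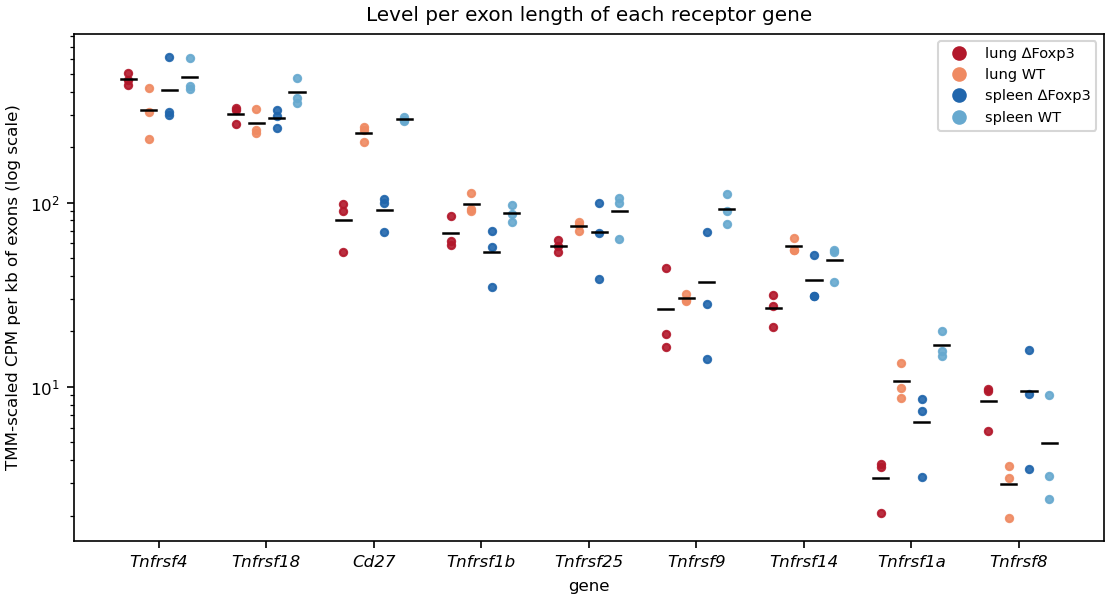
Level of each receptor gene per kb of exons, in TMM-scaled CPM per kb on a log axis; each dot is a library, each black bar the mean of 3, and colours mark the 4 groups. Tnfrsf4 and Tnfrsf18 stand at the left with means of 270 to 483 CPM per kb, and Tnfrsf1a and Tnfrsf8 at the right with means of 2.96 to 16.9.

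The question of the genotype comparisons was which receptors differ in Treg that lack an intact Foxp3. By the sample labels the spleen groups also differ in the reporter allele and in R26.YFP. Deletion and reporter allele cannot be told apart in spleen. In the lungs, 3 of the 9 fell (Cd27, Tnfrsf1a and Tnfrsf14) and the other 6 did not pass an adjusted p of 0.05 in edgeR's quasi-likelihood test, against 20.2% of all 13295 tested genes called in either direction and 10.5% called lower. In the spleen, 4 of the 9 fell (Cd27, Tnfrsf1a, Tnfrsf1b and Tnfrsf18), against 26.6% of tested genes called in either direction and 12.5% called lower. Their median log2 fold change was -0.36 in lung and -0.46 in spleen, where the median over all tested genes was -0.01 and -0.02. The libraries of the genotypes did not overlap for 7 of the 9 in lung, where 45.3% of tested genes did not overlap, and for 5 of the 9 in spleen, where 38.2% did not. The lung count was 5 without spleen ∆Foxp3 library 3, which is in neither lung group but enters the filter, the scaling and the estimate of spread. The spleen count was 2 without spleen WT library 2 or without spleen ∆Foxp3 library 1.

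**Figure D2:**
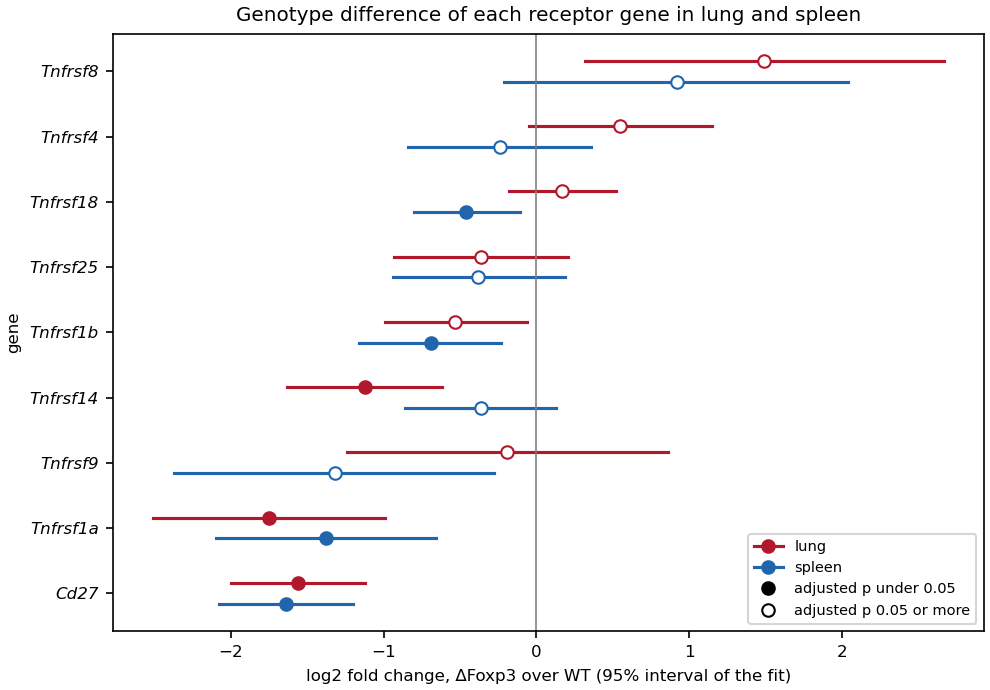
Log2 fold change of each receptor gene, ∆Foxp3 over WT, in lung (red, upper of each pair) and spleen (blue, lower); lines are the 95% intervals of the fit over 12 libraries and filled dots have an adjusted p under 0.05. Cd27 and Tnfrsf1a are filled on the left in both tissues, Tnfrsf14 in lung, and Tnfrsf1b and Tnfrsf18 in spleen; the test of the difference between tissues called none of the 9.

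Cd27 lies on chromosome 6, 125232622 to 125237010 (mm10, minus strand), and encodes a costimulatory receptor of naive and memory lymphocytes whose ligand is CD70. It was at 230, 210 and 126 CPM in lung ∆Foxp3 and at 577, 598 and 493 CPM in lung WT. It was at 243, 233 and 161 CPM in spleen ∆Foxp3 and at 648, 655 and 680 CPM in spleen WT. In either tissue every ∆Foxp3 library lay far below every WT library, and the ∆Foxp3 libraries of lung and spleen overlapped. Cd27 fell by 1.56 ± 0.21 on the log2 scale in lung (SE; adjusted p = 0.000169), 2.95-fold lower, and by 1.64 ± 0.21 in spleen (adjusted p = 5.5e-05), 3.11-fold lower. The lung difference minus the spleen difference was 0.08 (95% interval -0.53 to 0.69; adjusted p = 0.978). Both calls held in all 24 alternative settings, with log2 fold changes of -1.69 to -1.28 in lung and -1.72 to -1.47 in spleen. Within a group, WT libraries varied least, with a coefficient of variation of 2.59% in spleen WT and 10% in lung WT, against 29.4% in lung ∆Foxp3 and 21% in spleen ∆Foxp3. Vamp1 overlaps the locus on the opposite strand without shared exon bases. Mir8113 lies on the same strand and shares 129 exon bases with Cd27, or 5.54% of its exons. Whether the counting used strand is not given in the sources.

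The promoters of Cd27 and Tnfrsf8 are shown because these genes lie towards opposite ends of the genotype differences. The 250 bases before the RefSeq start (GRCm38.p6) are given 5′ to 3′ on the minus strand, chr6:125237028-125237277 for Cd27 and chr4:145315165-145315414 for Tnfrsf8. Neither window holds an annotated exon base of its own gene, and exons of other genes were not checked. Capitals mark a match to the 10-base kappaB consensus, the sequence that NF-kappaB dimers are known to bind.
Cd27: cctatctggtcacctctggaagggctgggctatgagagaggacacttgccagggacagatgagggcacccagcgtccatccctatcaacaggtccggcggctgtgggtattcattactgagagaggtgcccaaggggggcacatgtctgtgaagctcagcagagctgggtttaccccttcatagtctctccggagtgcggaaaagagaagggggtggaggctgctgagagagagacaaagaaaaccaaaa
Tnfrsf8: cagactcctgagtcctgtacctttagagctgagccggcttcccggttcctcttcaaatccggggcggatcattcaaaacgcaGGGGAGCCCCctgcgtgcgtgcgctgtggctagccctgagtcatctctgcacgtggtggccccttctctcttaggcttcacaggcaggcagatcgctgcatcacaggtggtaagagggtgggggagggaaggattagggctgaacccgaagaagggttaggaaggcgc
The kappaB match in Tnfrsf8 begins 168 bases before the start and reads on the opposite strand of the gene. The Cd27 window holds none, and its 5 CpG and 56% GC compare with 12 CpG and 60% GC in the Tnfrsf8 window and a median of 6 CpG and 52.4% GC over all 32851 promoters. Both strands were searched in the 11 promoter windows listed for the 9 genes, where 3.9% of all promoters hold a kappaB match. The other matches lie at the second listed start of Tnfrsf9, GGGGATTTCC and, overlapping it by all but a base, GGGATTTCCC, which begin 43 and 42 bases before that start. The forkhead letters TGTTTAC, found in 3.17% of all promoters, were in none of the 11 windows, which says only that these letters are not there.

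Tnfrsf4 (chromosome 4, 156013843 to 156016612, plus strand) encodes OX40, a costimulatory receptor induced by activation. It was at 685, 630 and 591 CPM in lung ∆Foxp3 and at 575, 426 and 302 CPM in lung WT. In the spleen it had 408, 844 and 422 CPM in ∆Foxp3 and 828, 589 and 562 CPM in spleen WT. The lung groups did not overlap, with ∆Foxp3 above WT, whereas in spleen ∆Foxp3 library 2 lay above every WT library and the other two below. The log2 fold change was 0.55 ± 0.28 in lung (95% interval -0.05 to 1.15; adjusted p = 0.186) and -0.24 ± 0.28 in spleen (-0.84 to 0.36; adjusted p = 0.569). The lung value passed the threshold in 2 of 24 alternatives, without a low-count filter (adjusted p = 0.0144) and with limma (0.0363).

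Tnfrsf18 (chromosome 4, 156026164 to 156028895, plus strand) starts 9.6 kb after the end of Tnfrsf4 with no protein-coding gene between them, and encodes GITR, a costimulatory receptor constitutively high on Treg. It was at 483, 496 and 407 CPM in lung ∆Foxp3 and at 490, 376 and 366 CPM in lung WT. It was at 448, 486 and 386 CPM in spleen ∆Foxp3 and at 723, 562 and 526 CPM in spleen WT. The lung groups overlapped, while every spleen ∆Foxp3 library lay below every spleen WT library. In spleen Tnfrsf18 fell by 0.46 ± 0.16 (log2) at an adjusted p of 0.0499561, the last of the 3540 genes called there. Over all 24 alternatives the adjusted p ran from 0.0237 to 0.233, and the call was lost in 17 of them. DESeq2 was among these (0.0572), as was leaving out any library other than spleen WT library 3 or spleen ∆Foxp3 library 2 (up to 0.233, without spleen WT library 1). In lung its log2 fold change was 0.17 ± 0.16 (95% interval -0.18 to 0.52; adjusted p = 0.504). The antisense gene Gm16008, at a mean of 18.6 CPM in lung ∆Foxp3, 15 in lung WT, 10.1 in spleen ∆Foxp3 and 16.1 in spleen WT, shares 414 exon bases with Tnfrsf18, or 27.17% of its exons, so reads there cannot be assigned without strand.

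The ratio of Tnfrsf4 to Tnfrsf18 CPM, which does not depend on library scaling, was 1.38 ± 0.0964 in lung ∆Foxp3 and 1.04 ± 0.189 in lung WT, and 1.25 ± 0.436 in spleen ∆Foxp3 and 1.09 ± 0.0529 in spleen WT (SD, n = 3 each). The lung ratios did not overlap (1.27 to 1.45 in ∆Foxp3, 0.824 to 1.17 in WT), and the spleen ratios did. These ratios are given as a description, with no test.

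Tnfrsf9 (chromosome 4, 150914562 to 150946102, plus strand) encodes 4-1BB, which is induced on activated T cells and Treg. It was at 52.8, 120 and 44.7 CPM in lung ∆Foxp3 and at 87, 80.1 and 80.9 CPM in lung WT. It was at 76.7, 188 and 38.3 CPM in spleen ∆Foxp3 and at 302, 244 and 209 CPM in spleen WT. Spleen WT stood above the other 3 groups, which overlapped with each other, and library 2 was the highest of both ∆Foxp3 groups. The log2 fold change was -1.32 ± 0.48 in spleen (95% interval -2.37 to -0.28; adjusted p = 0.0607) and -0.19 ± 0.48 in lung (-1.24 to 0.86; adjusted p = 0.83). Without spleen ∆Foxp3 library 2 the spleen value was -2.14 (adjusted p = 0.0035), and without spleen ∆Foxp3 library 3 it was -0.92. It passed the threshold in 8 of 24 alternatives (adjusted p 0.0035 to 0.297 over all 24), another being without lung ∆Foxp3 library 2 (0.0447).

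Tnfrsf8 (chromosome 4, 145267137 to 145315164, minus strand) encodes CD30, a receptor of activated T cells. It was at 20.1, 33.9 and 33.1 CPM in lung ∆Foxp3 and at 12.9, 6.74 and 11.1 CPM in lung WT. It was at 31.5, 54.9 and 12.3 CPM in spleen ∆Foxp3 and at 31.4, 8.58 and 11.4 CPM in spleen WT. The lung groups did not overlap, with ∆Foxp3 the higher, and the spleen groups did, with spleen WT library 1 nearly level with spleen ∆Foxp3 library 1. The log2 fold change was 1.49 ± 0.55 in lung (95% interval 0.32 to 2.67; adjusted p = 0.0691) and 0.92 ± 0.52 in spleen (-0.21 to 2.04; adjusted p = 0.222). It passed the threshold in 7 of 24 alternatives in lung, DESeq2 (adjusted p = 0.0242), limma (0.00669) and leaving out spleen WT library 1 (0.0251), spleen ∆Foxp3 library 2 (0.0468) or 3 (0.0309) among them, and in 4 in spleen, where leaving out spleen WT library 1 gave a log2 fold change of 1.74 (adjusted p = 0.024) and leaving out spleen ∆Foxp3 library 2 gave 0.33 (0.726). Its counts were low, 26 to 63 per library in lung WT.

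Tnfrsf1b (chromosome 4, 145213463 to 145246870, minus strand) lies 20.3 kb from Tnfrsf8 and encodes TNFR2, the TNF receptor without a death domain, known for supporting Treg. It was at 321, 236 and 226 CPM in lung ∆Foxp3 and at 432, 344 and 351 CPM in lung WT. It was at 218, 269 and 133 CPM in spleen ∆Foxp3 and at 300, 369 and 332 CPM in spleen WT. In both tissues every ∆Foxp3 library lay below every WT library, by a narrow margin. The nearest ∆Foxp3 and WT libraries were at 321 and 344 CPM in lung and at 269 and 300 CPM in spleen. In spleen Tnfrsf1b fell by 0.69 ± 0.22 (log2; adjusted p = 0.029), 1.62-fold lower, and its lung log2 fold change was -0.53 ± 0.22 (95% interval -0.99 to -0.06; adjusted p = 0.102). The spleen call was lost in 5 of 24 alternatives, 4 of which left out spleen WT library 2 (adjusted p = 0.0948) or 3 (0.0609) or spleen ∆Foxp3 library 1 (0.0649) or 3 (0.0872). The lung value passed in 4 of 24, among them limma (0.0109) and leaving out spleen ∆Foxp3 library 3 (0.0323).

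Tnfrsf14 (chromosome 4, 154921933 to 154928563, minus strand) encodes HVEM, which binds the TNF family ligand LIGHT and also the inhibitory receptors BTLA and CD160. It was at 45.5, 39.4 and 30.4 CPM in lung ∆Foxp3 and at 79.5, 92 and 80 CPM in lung WT. It was at 74.3, 44.8 and 44.6 CPM in spleen ∆Foxp3 and at 53.5, 79.1 and 77.8 CPM in spleen WT. The lung groups were clearly apart, and the spleen groups overlapped, since ∆Foxp3 library 1 was above WT library 1. Tnfrsf14 fell by 1.12 ± 0.24 on the log2 scale in lung (adjusted p = 0.00421), 2.18-fold lower, a call that held in all 24 alternatives (adjusted p 2.3e-05 to 0.035). The spleen log2 fold change was -0.36 ± 0.23 (95% interval -0.86 to 0.13; adjusted p = 0.276). The test of the difference between the tissues gave -0.76 (95% interval -1.47 to -0.06; adjusted p = 0.482), so a tissue difference is not shown.

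Tnfrsf1a (chromosome 6, 125349362 to 125362484, plus strand) encodes TNFR1, the TNF receptor with a death domain, and lies 112.4 kb from Cd27 with Tuba3a, Ltbr and Scnn1a between them. It was at 9.92, 9.52 and 5.36 CPM in lung ∆Foxp3 and at 35.1, 25.7 and 22.7 CPM in lung WT. It was at 22.3, 8.39 and 19.2 CPM in spleen ∆Foxp3 and at 38.1, 40.7 and 52.2 CPM in spleen WT. Every ∆Foxp3 library lay below every WT library of its tissue, and lung WT lay below spleen WT without overlap. Tnfrsf1a fell by 1.75 ± 0.36 on the log2 scale in lung (adjusted p = 0.00343), 3.35-fold lower, and by 1.38 ± 0.34 in spleen (adjusted p = 0.00737), 2.61-fold lower. The spleen call held in all 24 alternatives, and the lung call in 23, its value without the 3 libraries named above for their totals or genes detected being -1.28 (adjusted p = 0.065). Counts were 24 to 48 per library in lung ∆Foxp3, the lowest of the 9 genes there.

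Tnfrsf25 (chromosome 4, 152115934 to 152120119, plus strand) encodes DR3, whose ligand TL1A is known to expand Treg. It was at 132, 143 and 124 CPM in lung ∆Foxp3 and at 173, 178 and 160 CPM in lung WT. It was at 156, 88 and 227 CPM in spleen ∆Foxp3 and at 145, 241 and 227 CPM in spleen WT. The lung groups did not overlap and were tight, and the spleen groups covered much the same range. The log2 fold change was -0.36 ± 0.27 in lung (95% interval -0.93 to 0.21; adjusted p = 0.369) and -0.38 ± 0.26 in spleen (-0.94 to 0.19; adjusted p = 0.324). With only the lung groups in the fit, whose spread is smaller, the lung value passed the threshold (adjusted p = 0.0321), and in spleen it passed with limma (0.0229) and without spleen ∆Foxp3 library 3 (0.0381), with values of -0.73 to -0.09 over the libraries left out in turn.

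**Figure D3:**
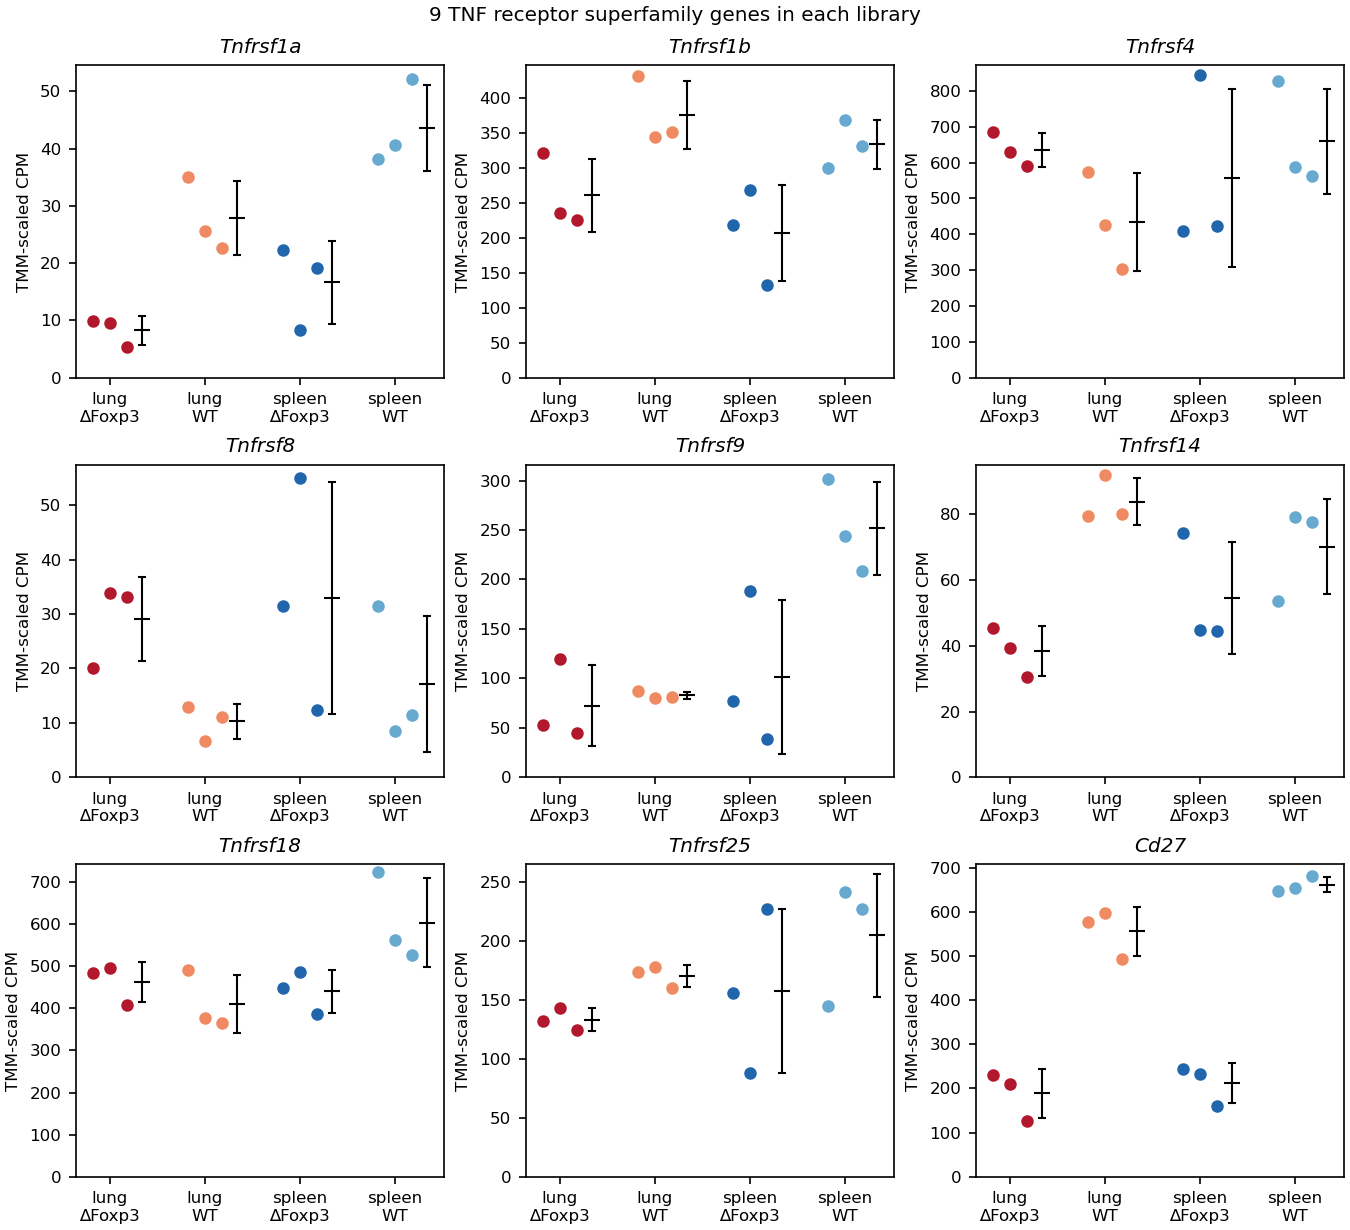
TMM-scaled CPM of the 9 receptor genes in each of the 12 libraries (dots, library 1 to 3 from left to right in a group), with the mean ± SD of the group beside them; axes start at 0. Cd27 shows ∆Foxp3 libraries at 126 to 243 CPM and WT libraries at 493 to 680, and Tnfrsf9 shows spleen WT at 209 to 302 CPM above all others.

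The spread among ∆Foxp3 libraries differed by gene. In spleen ∆Foxp3 the highest library was 4.91 times the lowest for Tnfrsf9, 4.46 times for Tnfrsf8, 2.66 times for Tnfrsf1a and 2.58 times for Tnfrsf25, and 1.26 times for Tnfrsf18. Spleen ∆Foxp3 library 2 had the highest Tnfrsf4, Tnfrsf8 and Tnfrsf9 of its group, at 1.51, 1.67 and 1.86 times the group mean, and the lowest Tnfrsf1a and Tnfrsf25, at 0.5 and 0.56 times. In lung ∆Foxp3, library 2 stood apart for Tnfrsf9 at 1.66 times the mean, while Tnfrsf4, Tnfrsf18 and Tnfrsf25 stayed within 1.22 times from lowest to highest. Lung ∆Foxp3 library 3 was the lowest of its group for every receptor but Tnfrsf8, and also for Foxp3. These patterns were noticed after the values were seen and were not tested.

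**Figure D4:**
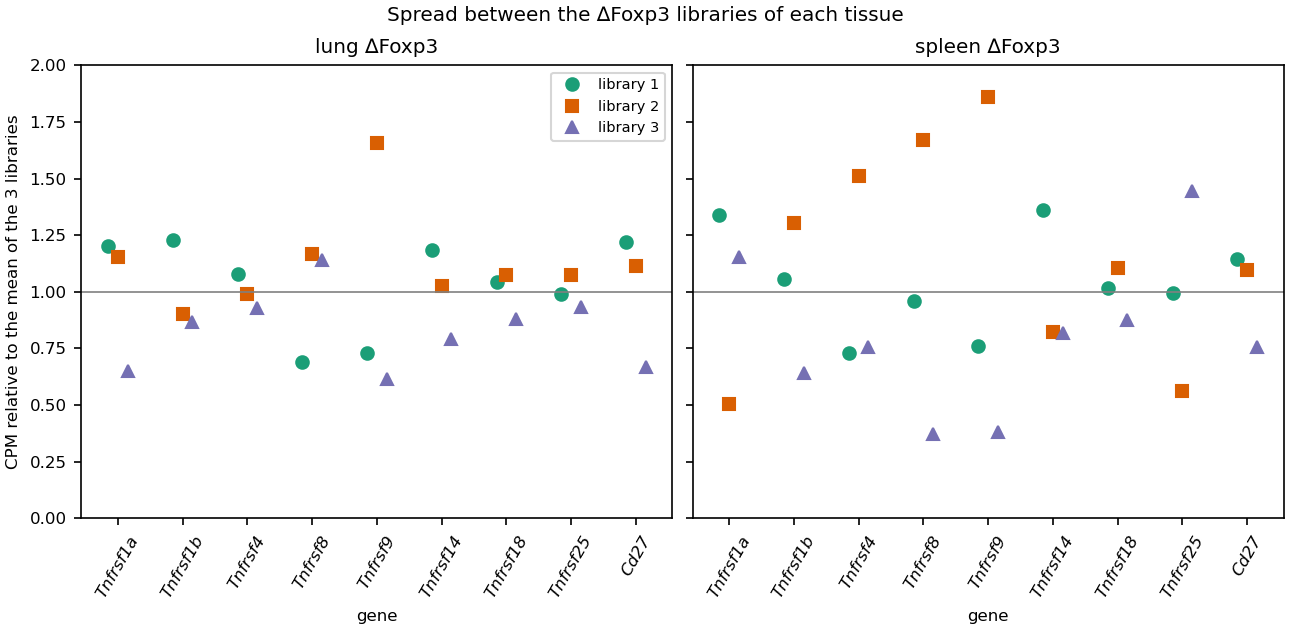
CPM of each receptor gene in the 3 lung ∆Foxp3 (left) and 3 spleen ∆Foxp3 (right) libraries, divided by the mean of the 3; the line marks 1. Spleen library 2 (square) is highest for Tnfrsf4, Tnfrsf8 and Tnfrsf9 and lowest for Tnfrsf1a and Tnfrsf25.

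Between tissues, lung WT was set against spleen WT, sharing each of these groups with a genotype comparison. None of the 9 was called by edgeR, against 4.13% of tested genes; 3 had an unadjusted p under 0.05, DESeq2 called 1 and limma 2. Those with the smallest p were Tnfrsf18, with a log2 fold change of -0.56 ± 0.16 (95% interval -0.9 to -0.21; adjusted p = 0.0689), and Tnfrsf9, at -1.61 ± 0.49 (-2.66 to -0.55; adjusted p = 0.088), both lower in lung WT with no overlap of libraries. Tnfrsf9 was the only one of the 9 with a difference above 2-fold here, 3.05-fold lower in lung WT. It passed in 5 of 24 alternatives (adjusted p 0.000619 to 0.332 over all 24), among them without spleen ∆Foxp3 library 2 (0.0218) or 3 (0.0333). Tnfrsf18 passed in 7 (0.0199 to 0.277 over all 24), among them DESeq2 (0.0429) and without lung WT library 1 (0.0491). Tnfrsf4 had a log2 fold change of -0.6 ± 0.28 (adjusted p = 0.259). Libraries did not overlap for 5 of the 9, where 25.6% of tested genes did not.

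Lung ∆Foxp3 set against spleen ∆Foxp3, whose alleles differ by the sample labels, gave 0 of 9 calls by edgeR, DESeq2 and limma, against 0.722% of tested genes by edgeR, and 2 had an unadjusted p under 0.05. For none of the 9 were the libraries apart, which held for 15.5% of tested genes. The largest value was that of Tnfrsf1a, at -1.01 ± 0.36 (95% interval -1.77 to -0.25; adjusted p = 0.343). Cd27 differed by -0.17 ± 0.2 (-0.61 to 0.26; adjusted p = 0.911).

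The test of whether the genotype difference depends on the tissue called 0 of the 9 by edgeR, DESeq2 and limma, against 0.925% of tested genes by edgeR. The ∆Foxp3 alleles differ between the tissues by the sample labels, so allele and tissue cannot be told apart in this test. Before adjustment p was under 0.05 for 2, Tnfrsf14 (above) and Tnfrsf18, whose lung difference minus spleen difference was 0.63 ± 0.23 (95% interval 0.14 to 1.12; adjusted p = 0.346). Tnfrsf4 stood at 0.79 ± 0.39 (-0.06 to 1.64; adjusted p = 0.586) and Tnfrsf9 at 1.14 ± 0.68 (-0.34 to 2.62; adjusted p = 0.707). The intervals of Cd27, Tnfrsf1a, Tnfrsf1b, Tnfrsf8 and Tnfrsf25 included 0 as well, so neither a shared nor a tissue-bound response can be read from these intervals alone. In the separate genotype tests Cd27 and Tnfrsf1a were called lower in each tissue.

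Of 12 listed ligands and binding partners of these receptors, 9 were tested, and 7 rose in lung ∆Foxp3 (Tnfsf8, Tnfsf14, Tnfsf9, Cd160, Tnf, Grn and Cd70), with a median log2 fold change of 2 over the 9; of all tested genes 20.2% were called in lung and 26.6% in spleen. In spleen ∆Foxp3, 4 rose (Tnfsf8, Tnfsf14, Tnfsf9 and Grn) and 2 fell (Tnf and Lta), with a median of 1.66. Tnfsf8, the ligand of CD30, was at 442, 291 and 402 CPM in lung ∆Foxp3 against 30.6, 15.8 and 13 in lung WT, a log2 fold change of 4.26 ± 0.34 (adjusted p = 4.2e-06), and at 242, 375 and 271 CPM in spleen ∆Foxp3 against 17.7, 25.5 and 12.8 in spleen WT, 3.99 ± 0.33 (adjusted p = 3.9e-06). Tnfsf14, which encodes the HVEM ligand LIGHT, rose by 5.1 ± 0.33 in lung (adjusted p = 6.6e-07) and 3.69 ± 0.28 in spleen (1.6e-06), while Tnfrsf14 itself fell in lung. The ∆Foxp3 libraries of these ligands lay far above all WT libraries in both tissues.

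Tnfsf9, the ligand of 4-1BB, rose by 2.63 ± 0.46 in lung (adjusted p = 0.00134) and 2.49 ± 0.46 in spleen (0.00109). Cd70, the ligand of CD27, had 109 counts over the lung ∆Foxp3 libraries and 0 over lung WT, at least 37.2-fold higher if WT is set to 3 counts in all (adjusted p = 0.0197). In spleen it had 9.62, 16.3 and 1.72 CPM in ∆Foxp3 against 3.45, 0 and 0 CPM in WT (adjusted p = 0.107). Its call in lung held in 18 of 23 alternatives. Btla and Cd160, the inhibitory partners of HVEM, differed: Btla had log2 fold changes of -0.29 in lung (adjusted p = 0.338) and -0.45 in spleen (0.109). Cd160 rose by 2 ± 0.47 in lung (0.00818), and its spleen value was 0.96 ± 0.43 (0.115). The ligands of OX40, GITR and DR3 (Tnfsf4, Tnfsf18 and Tnfsf15) were too low to be tested, at a mean of at most 0.945 CPM in any group.

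Tnf, which encodes the ligand of TNFR1 and TNFR2, was at 22.2, 21.4 and 25 CPM in lung ∆Foxp3 and at 7.11, 10.4 and 9.32 CPM in lung WT, and at 19, 23.7 and 7.61 CPM in spleen ∆Foxp3 and 79.7, 33.1 and 38.9 CPM in spleen WT. It was thus higher in ∆Foxp3 in lung and lower in spleen, with no overlap in either tissue. The log2 fold change was 1.36 ± 0.41 in lung (adjusted p = 0.03) and -1.61 ± 0.39 in spleen (adjusted p = 0.00706). The lung call held in 18 of 24 alternatives (adjusted p up to 0.114 over all 24) and the spleen call in 23 (up to 0.0547 over all 24). Lta, another TNF receptor ligand, fell by 2.21 ± 0.41 in spleen (adjusted p = 0.00124), and its lung value was 0.08 ± 0.39 (0.918). Grn, whose product progranulin has been described as a TNF receptor ligand in mouse, rose by 0.93 ± 0.19 in lung (0.0031) and 1.66 ± 0.19 in spleen (2.4e-05).

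**Figure D5:**
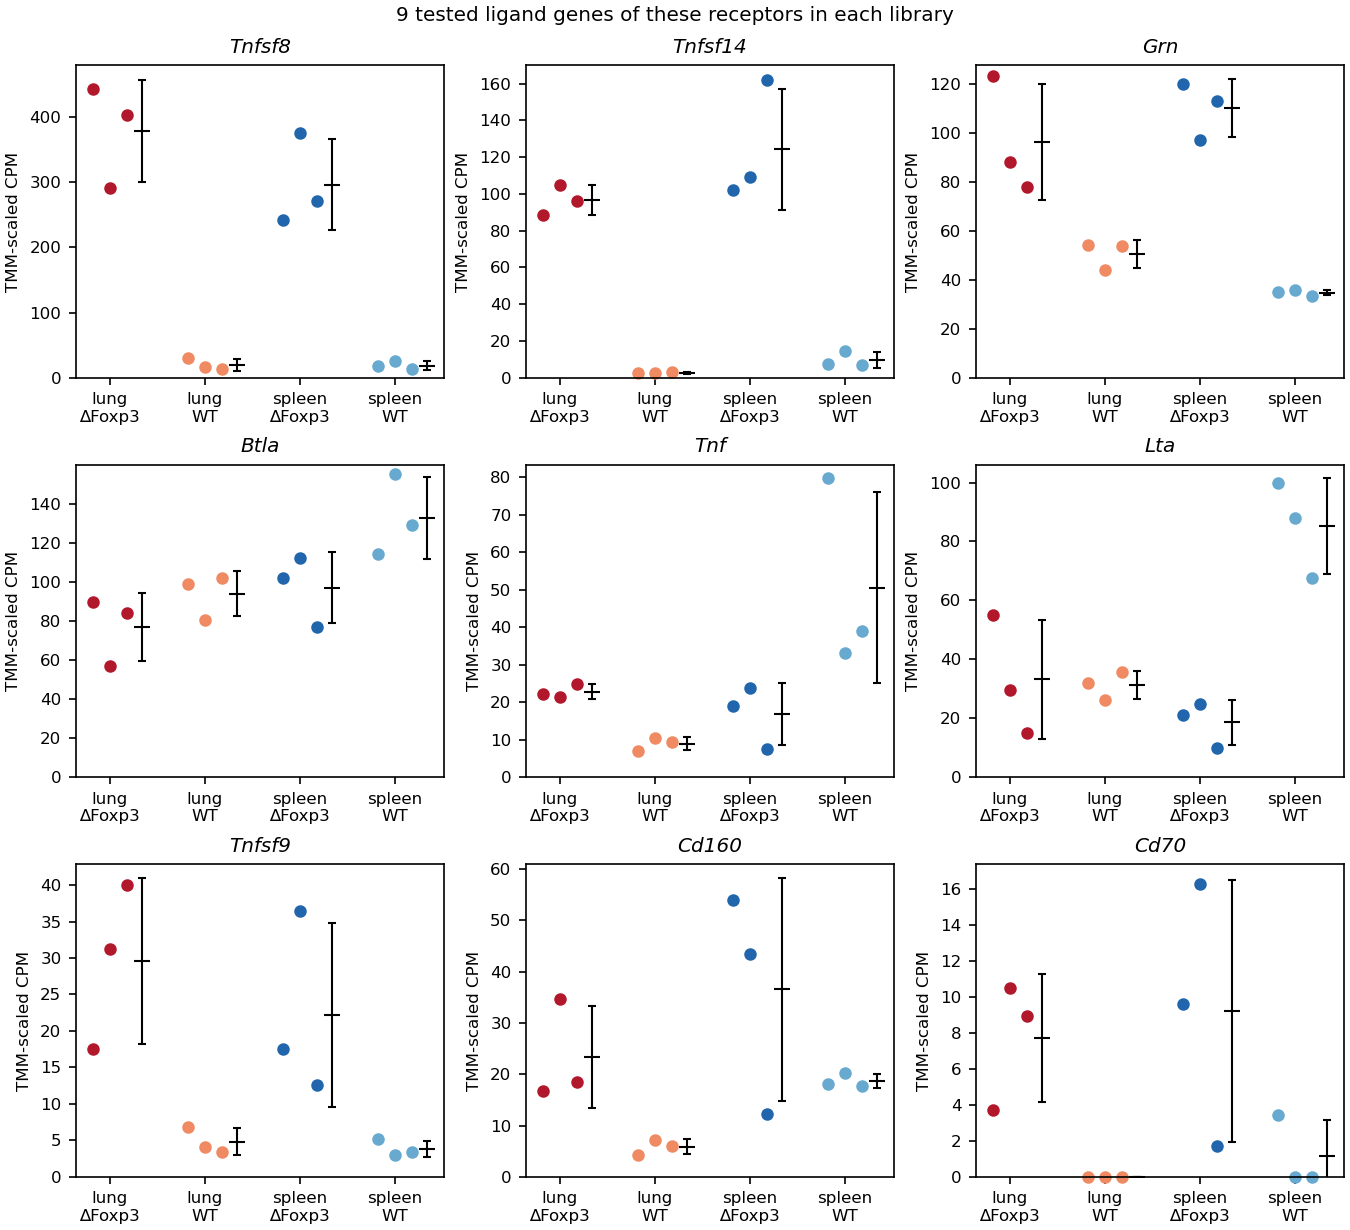
TMM-scaled CPM of the 9 tested ligand genes in each library (dots), with the mean ± SD of each group of 3; axes start at 0. Tnfsf8 and Tnfsf14 are high in all 6 ∆Foxp3 libraries, and Tnf is highest in spleen WT and lowest in lung WT.

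Of 19 other receptors of the superfamily, 11 were tested; 3 fell in lung and 3 fell and 1 rose in spleen, with medians of -0.38 and -0.32, where 20.2% of all tested genes were called in lung and 26.6% in spleen. Fas, which encodes a death receptor, fell by 0.92 ± 0.26 in lung (adjusted p = 0.0216) and 1.74 ± 0.26 in spleen (0.000236). Its lung call held in 19 of 24 alternatives (adjusted p up to 0.213 over all 24). Tnfrsf13b, which encodes the BAFF and APRIL receptor TACI, fell by 1.09 ± 0.18 in lung (0.000812) and 0.87 ± 0.18 in spleen (0.00224). Tnfrsf26 fell by 0.83 ± 0.15 in lung (0.00192) and 0.72 ± 0.15 in spleen (0.00313), with the reservation that it may share reads with its paralogs Tnfrsf22 and Tnfrsf23. Tnfrsf11a, which encodes RANK, had 30 counts over spleen ∆Foxp3 and 0 over spleen WT, at least 13.4-fold higher (adjusted p = 0.0269), with 4.02 CPM in library 3 and 0.437 and 0 in the others, and its call held in 16 of 22 alternatives.

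Among 15 adaptors, all tested, 2 rose and 4 fell in lung and 1 rose and 4 fell in spleen, with medians of -0.17 and -0.26, against the same 20.2% and 26.6% of all tested genes called. The count in lung, 6, was 1 to 3 when any lung library other than ∆Foxp3 library 1 was left out, and that in spleen, 5, was 3 without spleen WT library 1 or spleen ∆Foxp3 library 3. Siva1, whose product binds the tail of CD27, rose by 1.35 ± 0.21 in lung (adjusted p = 0.000469) and 1.71 ± 0.21 in spleen (3.9e-05). Cflar, which encodes the caspase 8 inhibitor c-FLIP, fell by 0.67 ± 0.15 in lung (0.00685) and 0.74 ± 0.15 in spleen (0.00238). Traf5, an adaptor of OX40 and CD27, fell by 0.73 ± 0.21 in lung (0.0212) and 0.6 ± 0.2 in spleen (0.0386), a spleen call that held in 11 of 24 alternatives. Traf1 fell by 0.78 ± 0.23 in spleen (0.0182) and Casp8 by 0.86 ± 0.18 (0.00303), and Map3k5, which encodes the kinase ASK1, rose by 0.71 ± 0.22 in lung (0.0367). The last of these held in 19 of 24 alternatives, Traf1 in 21, Traf5 in lung in 18, Birc2 in lung (adjusted p = 0.041) in 15 and Casp8 in lung (0.0491) in 11.

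Of 18 NF-kappaB genes, all tested, 4 rose and 2 fell in lung and 1 rose and 3 fell in spleen, with medians of 0.17 and -0.32, again beside 20.2% and 26.6% of all tested genes; 3 were called in lung without lung WT library 2. Nfkb1, which encodes p105 and p50, rose by 1.62 ± 0.27 in lung (adjusted p = 0.00115) and 1.37 ± 0.27 in spleen (0.00217). Nfkb2, a subunit gene of the non-canonical arm, rose by 0.88 ± 0.22 in lung (0.0106). Ikbkb, a kinase that releases NF-kappaB, fell by 0.75 ± 0.15 in lung (0.00289) and 0.71 ± 0.15 in spleen (0.00265), and Tnip1, an inhibitor of the pathway, fell by 0.89 ± 0.16 (0.00189) and 0.73 ± 0.16 (0.00407). Rel, which encodes c-Rel, fell by 1.36 ± 0.35 in spleen (0.0119), and its lung value was 0.08 ± 0.34 (0.899). These lists carry no test of their own, and over all tested genes the medians were -0.01 in lung and -0.02 in spleen.

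For each of the 9, the tested genes with the most similar profile over the 12 libraries were sought by Pearson's r of log2(CPM + 1) among 8501 genes averaging at least 10 CPM; the libraries share groups, so r is a description. Cd27 was nearest to Il16 (r = 0.993) and Ift80 (0.989), Tnfrsf1a to Gimap3 (0.974) and Ppcdc (0.963), and Tnfrsf14 to Sbk1 (0.954) and Camk2d (0.945). Tnfrsf1b was nearest to Nt5e (0.952) and Apol9b (0.946), and Tnfrsf8 to Ppm1g (0.963) and Cdca4 (0.948). Tnfrsf18 was nearest to Cops7a (0.931) and Myc (0.915), Tnfrsf25 to Cep164 (0.936) and Tcta (0.907), and Tnfrsf9 to Timmdc1 (0.929) and Pdcd2l (0.917). Tnfrsf4 had the least similar neighbours, Psme1 (0.884) and Nfkbie (0.849).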

How the data were processed

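The deposited table holds the authors' raw, whole-number counts per gene symbol for 12 libraries and was used unchanged. The submitters' processing notes name mm10, Subread 2.0.0 with featureCounts, and STAR 2.7.3a; neither the annotation nor the use of strand is given. Per the labels' protocols, RNA of 1000 cells was copied from poly(A) tails, amplified for 18 cycles without molecular identifiers and read as pairs of 38 nt, so counting floors (3 counts, 0.332 to 0.758 CPM) describe counting error alone. Differences were tested with edgeR 4.0.16 (R 4.3.3; quasi-likelihood F test, robust, two-sided, TMM factors, default low-count filter, group as the only term, 12 libraries in 1 fit), with Benjamini-Hochberg adjustment over 13295 genes and a call at an adjusted p under 0.05. The fit was tested on simulated counts for the spleen genotype comparison alone, with the same setting of spread for every gene. The other comparisons were not simulated. Exon lengths and coordinates came from GENCODE (mm10) and promoters from RefSeq (GRCm38.p6). Alternatives were other scalings and filters, DESeq2 1.42.0, limma 3.58.1 (voom with quality weights), other sample choices, a replicate block and leaving out each library. Members, gene lists, tests and the rule for named genes (up to 4 called genes per list and comparison by adjusted p, and the 2 most similar profiles per member) were chosen with earlier results of these data known.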

Additional observations from a re-analysis of the deposited data

Results flagged for a closer look

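The genotype difference of Tnf, a ligand gene of TNFR1 and TNFR2, differed between the tissues by a test of the difference itself: the lung log2 fold change minus the spleen log2 fold change was 2.97 ± 0.56 (SE; adjusted p = 0.0212, edgeR). The lung difference alone passed in 18 of 24 alternatives. The difference between tissues passed the threshold in 16 of 23 alternatives. Over all 23 its values were 2.25 to 3.31, with adjusted p from 6.0e-09 to 0.127. Tnf was at a mean of 22.9 ± 1.91 CPM in lung ∆Foxp3 and 8.93 ± 1.66 in lung WT, and at 16.8 ± 8.29 CPM in spleen ∆Foxp3 and 50.6 ± 25.4 in spleen WT (SD, n = 3 each), with spleen WT library 1 at 79.7 CPM. The alleles of the ∆Foxp3 groups differ between the tissues by the sample labels, so allele and tissue cannot be told apart.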

How the results depend on the processing

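Of 1071 values of the 9 genes under 24 alternatives, 978 kept their direction and side of the threshold, 23 lost and 41 gained a call, and 29 changed sign, all of them values that were not called. The number of the 9 called was 6 in lung (main value 3) with limma, with no filter on low counts and when fitting only the compared groups, and 3 to 5 leaving out each library. In spleen (main value 4) it was 2 with only the compared groups and 2 to 5 leaving out each library. With limma in spleen, Tnfrsf8 gained a call as higher in ∆Foxp3 (log2 fold change 1.44, adjusted p = 0.0226). Tnfrsf9 (-1.51, adjusted p = 0.0168) and Tnfrsf25 (-0.61, adjusted p = 0.0229) gained a call as lower there, and Tnfrsf18 lost its call (0.0736). For lung WT against spleen WT (main value 0) the number called was 1 with upper-quartile factors, library totals, DESeq2 and only the compared groups. It was 2 without a filter and with limma, and 0 to 1 leaving out each library. Same-numbered libraries were not paired by any source, and their deviations correlated at r = -0.045 to 0.095 over 12 pairs; the replicate block gave 2 calls there (Tnfrsf9 and Tnfrsf18), 74 genes for the interaction, and an adjusted p of 0.0122 for Tnfrsf9 in spleen.

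Genes called changed more. For lung WT against spleen WT (549), 957 were called without a filter, 1046 with DESeq2 and 1046 with limma, and 281 to 693 leaving out each library. For lung against spleen ∆Foxp3 (96), the counts were 292, 235 and 228, and 42 to 152 leaving out each library; for the interaction (123), 363, 304 and 190, and 36 to 178. In lung (2686), 4598 were called with limma, 1321 without the 3 libraries that stood apart in totals or genes detected, and 1457 to 3364 leaving out each library, lowest without lung ∆Foxp3 library 3. In spleen (3540), 2287 were called with only the compared groups. The interaction uses all groups, so that last setting could not be fitted for it. The cause of these moves was not tested.

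These values changed sign. The interaction of Tnfrsf25 was -0.01 with RLE factors, the stricter filter and DESeq2 and -0.27 to 0.38 leaving out each library. With limma the interaction of Cd27 was -0.08 and Tnfrsf8 between ∆Foxp3 groups 0. Without the 3 libraries, Tnfrsf9 in lung was 0.14, Cd27 between ∆Foxp3 groups 0.07, and the interactions of Tnfrsf1a and Tnfrsf8 0.15 and -0.13. Leaving out each library, the interaction ran from -0.09 to 0.3 for Cd27, -0.07 to 0.4 for Tnfrsf1b and -0.21 to 1.17 for Tnfrsf8. Between ∆Foxp3 groups it gave -0.34 to 0.07 for Cd27, -0.02 to 0.17 for Tnfrsf18, -0.53 to 0.12 for Tnfrsf25, -0.57 to 0.42 for Tnfrsf8 and -1.02 to 0.35 for Tnfrsf9. Tnfrsf9 in lung ran from -0.72 to 0.1, and Tnfrsf8 between WT groups from -1.06 to 0.07, positive without spleen WT library 1.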

Other observations

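Tnfaip3, which encodes the NF-kappaB inhibitor A20 and was named after its values were seen, was the only 1 of the 18 NF-kappaB genes called between the WT groups, at 544, 437 and 338 CPM in lung WT and 55.6, 43.6 and 78.2 CPM in spleen WT (log2 fold change 2.89 ± 0.27; adjusted p = 7.3e-05, edgeR). It was also at 448, 322 and 449 CPM in lung ∆Foxp3 and 64, 44.3 and 86.4 CPM in spleen ∆Foxp3 (2.64 ± 0.27; adjusted p = 0.000251). The groups did not overlap in either comparison, and the genotypes of a tissue did (adjusted p = 0.795 in lung and 0.738 in spleen). Tissue and preparation cannot be told apart in these values.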
